A study of Mus musculus with 2 samples.

Results

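Transcripts of 10 enzymes of glycolysis and lactate formation other than pyruvate kinase were described in C2C12 cells. The members were Hk1, Hk2, Gpi1, Pfkl, Aldoa, Tpi1, Pgk1, Pgam1, Eno1 and Ldha, taken by gene name from both transcript tables. They are 10 of the 14198 annotated genes with a read in either library. They held 209 transcript models in replicate 1 and 223 in replicate 2, out of 82272 and 78691 models in all. A further model of a second Aldoa identifier had 1 read in replicate 1 and was left out of the Aldoa counts. The study sequenced long reads of total RNA from C2C12, a myoblast line that the labels derive from crush-injured thigh muscle of C3H mice. It had 1 group of 2 libraries, labelled biological replicates 1 and 2, with no treatment, genotype change or time point given. Whether the culture was growing or differentiating is not in the labels, nor is its age. A line is 1 lineage of cells, and nothing says how separate the 2 cultures were, so the spread between the libraries may be partly technical.

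Glycolysis splits glucose into pyruvate in the cytosol. Hexokinase and phosphofructokinase catalyse its committed, regulated steps, and aldolase, triosephosphate isomerase, phosphoglycerate kinase, phosphoglycerate mutase and enolase work near equilibrium. Lactate dehydrogenase turns pyruvate into lactate and restores NAD+. Most steps have several genes, with some forms broadly expressed and others typical of muscle, brain, liver or testis, and muscle differentiation is known for changing the form used.

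The libraries held 791850 and 735077 reads, of which 773408 and 722647 lay on annotated genes. Levels are given as CPM, counts per 1000000 of these annotated-gene reads, as mean ± SD over the 2 libraries (n = 2). Each long read was counted once, whatever the transcript's length, so levels of genes were set side by side without scaling by length. A gene with 0 reads could have had up to 3.88 CPM in replicate 1 and 4.15 CPM in replicate 2, the worth of 3 counts. Intervals and these limits cover counting error only. The muscle-lineage markers Des, Cdh15, Myog, Itga7 and Mymk all had reads in both libraries, from 80 for Itga7 to 1187 for Des. Whether the cells were growing or differentiating was not read from these markers. Of the mature fibre markers, Ckm had 40 and 28 reads, Myh1 had 3 and 0, Myh2 and Myh4 had 0, and the muscle enolase Eno3 had 1388 in each library. The 10 markers of endothelial, blood, fat, epithelial and neural cells had 0 to 2 reads.

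The 10 enzymes together took 9704 reads in replicate 1 and 10548 in replicate 2. Their summed level was 12547 CPM and 14596 CPM, a mean of 13572 ± 1449 CPM. The order of the mean levels was Eno1, Ldha, Aldoa, Tpi1, Pgk1, Pgam1, Gpi1, Pfkl, Hk1 and Hk2. Aldolase and the enzymes that act after it thus stood above hexokinase, the isomerase and phosphofructokinase. The lower members also have the longest main transcripts, of 2884 bases for Gpi1, 3730 for Pfkl, 4278 for Hk1 and 5513 for Hk2. Those of the other members have 1511 to 2027 bases. The part of transcript length in this order was not tested. Eno1 ranked 13 and Ldha 17 among the 14198 genes by mean level, and Hk2 ranked 8933. Neighbours in this order overlapped over the 2 libraries in 1 place. Pgk1 at 896 and 1146 CPM overlapped Pgam1 at 908 and 1075 CPM, and all other neighbouring pairs kept apart.

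**Figure D1:**
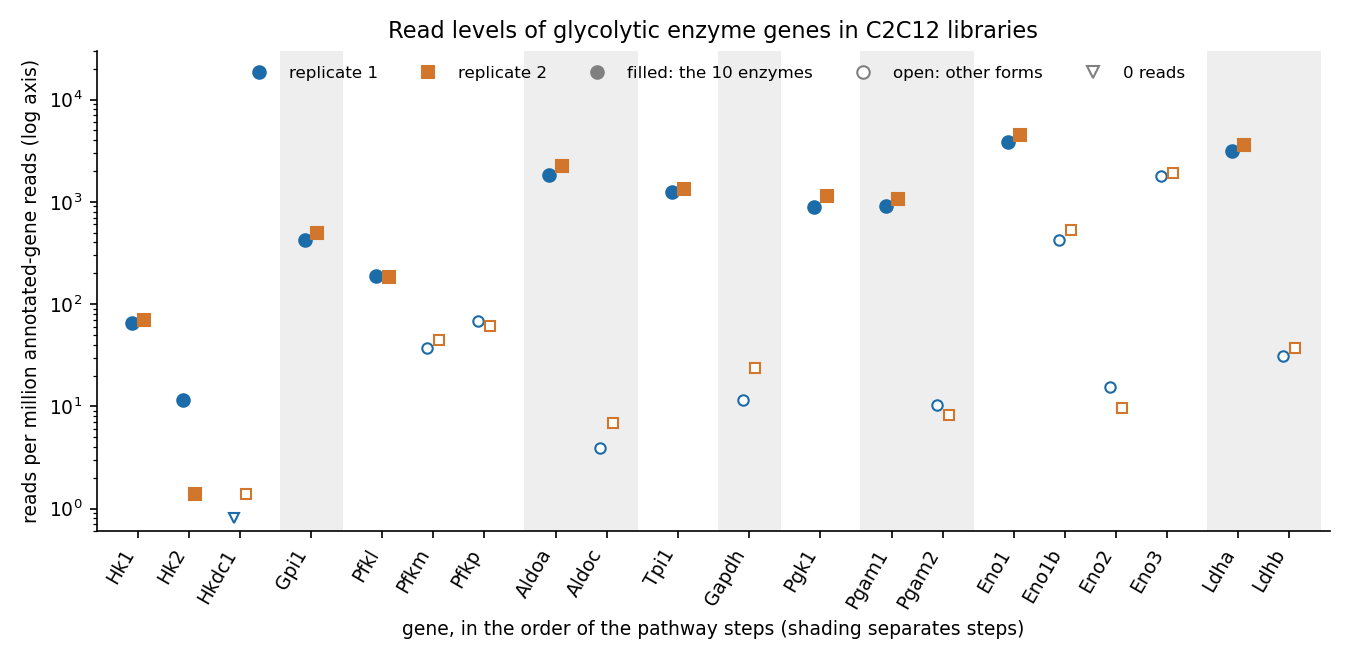
Level of each glycolytic enzyme gene with reads, in CPM on a log axis, for replicate 1 (circles) and replicate 2 (squares). Filled symbols are the 10 enzymes and open symbols other genes of the same steps. Eno1, Ldha and Aldoa lie highest in both libraries, and Hk2 is the only filled gene whose libraries lie far apart, at 9 reads and 1 read.

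Hexokinase phosphorylates glucose on entry to the cell, and Hk1 is the form bound to mitochondria in most tissues. Hk1 (ENSMUSG00000037012.18; mm10 chromosome 10, 62268855 to 62379908, minus strand) had 50 reads in each library, a mean of 66.9 ± 3.2 CPM. Hk2 (ENSMUSG00000000628.10; chromosome 6, 82725025 to 82774454, minus strand), the insulin-regulated form of muscle and fat, had 9 reads in replicate 1 and 1 read in replicate 2. Of these, 8 and 1 lay on single-exon models of the genomic class, which match no spliced transcript of the gene. The annotated Hk2 transcript of 18 exons had 1 read in replicate 1 and 0 in replicate 2. Hk1 made up 84.7% (Wilson 95% interval 73.5 to 91.8) of hexokinase reads in replicate 1 and 96.2% (87.0 to 98.9) in replicate 2. Hkdc1 had 0 and 1 reads, and Hk3 had 0 reads. The coding sequences of Hk1 and Hk2 are 72.9% identical over 2728 aligned bases.

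All 30 complete Hk1 reads of replicate 2 and 23 of 24 in replicate 1 lay on models with the same first exon. This exon is at chromosome 10, 62340013 to 62340542. RefSeq gives Hk1 a second, more distal start at 62379908, and no complete read lay on a model that starts there. Complete reads were 24 and 30 of the 50 Hk1 reads, and with incomplete models included the share on the main first exon fell from 97.9% to 64.6%. The promoter windows of both starts are shown to set the near start, which lies inside the main first exon, beside the distal one. Each spans 250 bases before to 50 after a RefSeq start (GRCm38.p6), 5′ to 3′ on the gene's strand, and capitals mark ACGTG on either strand, the core of the hypoxia response element.
Hk1 near start, chr10:62340372-62340671, minus strand: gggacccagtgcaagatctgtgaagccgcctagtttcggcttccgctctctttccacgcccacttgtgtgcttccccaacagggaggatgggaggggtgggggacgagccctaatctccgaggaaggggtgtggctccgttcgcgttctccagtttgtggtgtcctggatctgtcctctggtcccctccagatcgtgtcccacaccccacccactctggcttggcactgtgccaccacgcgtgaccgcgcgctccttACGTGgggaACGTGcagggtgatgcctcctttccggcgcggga
Hk1 distal start, chr10:62379859-62380158, minus strand: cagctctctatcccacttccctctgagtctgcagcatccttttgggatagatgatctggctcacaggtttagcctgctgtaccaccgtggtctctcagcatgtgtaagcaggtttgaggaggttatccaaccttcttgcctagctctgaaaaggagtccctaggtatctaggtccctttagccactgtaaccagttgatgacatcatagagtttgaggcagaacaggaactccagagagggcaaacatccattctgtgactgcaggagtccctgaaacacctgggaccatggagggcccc
The near window holds ACGTG at 2 places and the distal window at none. The near RefSeq start, at 62340421, lies 121 bases inside the annotated start of the main transcript. Both ACGTG places of the near window lie within the main first exon and not upstream of it. ACGTG was present in 19.6% of all 32851 RefSeq windows of this length, so a match is common.

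Glucose-6-phosphate isomerase, encoded by Gpi1, converts glucose 6-phosphate to fructose 6-phosphate and has no paralogue. Gpi1 (ENSMUSG00000036427.5; chromosome 7, 34201330 to 34230336, minus strand) had 328 and 361 reads, a mean of 462 ± 53 CPM. Phosphofructokinase forms tetramers from liver, muscle and platelet subunits. Pfkl (ENSMUSG00000020277.10; chromosome 10, 77986947 to 78010083, minus strand), the liver subunit, had 146 and 133 reads, 186 ± 3.3 CPM. The platelet subunit Pfkp had 53 and 44 reads, 64.7 ± 5.4 CPM. The muscle subunit Pfkm had 29 and 32 reads, 40.9 ± 4.8 CPM. Pfkl therefore made up 64.0% (57.6 to 70.0) and 63.6% (56.9 to 69.9) of phosphofructokinase reads, Pfkp 23.2% and 21.1%, and Pfkm 12.7% and 15.3%. The 3 subunits kept this order in both libraries. The Wilson intervals of Pfkp and Pfkm just missed each other in replicate 1 (18.2 to 29.1 against 9.0 to 17.7) and overlapped in replicate 2 (16.1 to 27.1 against 11.1 to 20.8). Pfkl shares 71.7% of its aligned coding bases with Pfkm and 68.8% with Pfkp.

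Aldolase cleaves fructose 1,6-bisphosphate, and Aldoa is the muscle and general form. Aldoa (ENSMUSG00000030695.16; chromosome 7, 126795234 to 126800751, minus strand) had 1421 and 1611 reads, 2033 ± 277 CPM. It made up 99.8% and 99.7% of aldolase reads. Aldoc, the brain form, had 3 and 5 reads, and the testis retrogenes Aldoart1 and Aldoart2 had 0. Aldoa is known for alternative promoters, some of them muscle-specific, joined to a common coding part, so the first exon is informative. The main first exon, at 126799045 to 126799254, carried 1279 of 1323 complete reads in replicate 1 (96.7%, 95.6 to 97.5) and 1460 of 1530 in replicate 2 (95.4%, 94.3 to 96.4). A 45-base first exon further upstream, at 126800002 to 126800046, carried 36 reads (2.72%, 1.97 to 3.74) and 61 reads (3.99%, 3.12 to 5.09). The annotated distal exon at 126800288 to 126800447, the start of transcript Aldoa-203, carried 5 and 7 reads. The 45-base exon opened 1 main unannotated structure of 9 exons and 1345 bases, with 36 and 57 reads, which joins the same second exon as the main transcript. Its splice donor lies 957 bases upstream of the main donor, and it overlaps exons of Aldoa-204 and Aldoa-210. The 2 junctions are shown, upstream exon in lower case and downstream exon in capitals, because they end in the same exon.
Aldoa main junction: cccgtcctgtgccagGAAAGCACTGCCACC
Aldoa junction of the 45-base exon: gtcactgcgccacagGAAAGCACTGCCACC
The main and the annotated distal promoter windows follow, again with ACGTG in capitals on either strand.
Aldoa main start, chr7:126799129-126799428, minus strand: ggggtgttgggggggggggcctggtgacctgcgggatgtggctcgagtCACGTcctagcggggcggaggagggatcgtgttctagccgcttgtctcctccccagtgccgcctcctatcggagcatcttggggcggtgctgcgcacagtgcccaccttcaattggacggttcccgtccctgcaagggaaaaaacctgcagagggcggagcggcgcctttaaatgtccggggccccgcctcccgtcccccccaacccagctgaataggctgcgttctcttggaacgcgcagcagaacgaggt
Aldoa distal start, chr7:126800398-126800697, minus strand: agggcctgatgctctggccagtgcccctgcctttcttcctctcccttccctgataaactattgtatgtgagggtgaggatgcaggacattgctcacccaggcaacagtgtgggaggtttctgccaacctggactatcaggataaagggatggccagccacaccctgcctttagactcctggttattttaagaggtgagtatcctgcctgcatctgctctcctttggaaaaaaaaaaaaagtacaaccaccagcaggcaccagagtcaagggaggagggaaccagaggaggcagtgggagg
The main window holds ACGTG at 1 place and GGGCGG, a binding sequence of Sp1-like factors, at 3. The distal window holds neither. GGGCGG was present in 35.7% of all windows. RefSeq lists no start at the 45-base exon in the table used here.

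Triosephosphate isomerase interconverts the 2 three-carbon sugars made by aldolase. Tpi1 (ENSMUSG00000023456.15; chromosome 6, 124810586 to 124814296, minus strand) had 969 and 960 reads, 1291 ± 53 CPM. The next enzyme, glyceraldehyde-3-phosphate dehydrogenase, is no member, and its gene Gapdh had only 9 and 17 reads, while 17 of its 148 processed pseudogenes of at least 90% identity held 2539 and 2566 reads. A level of Gapdh could therefore not be set beside those of the members. Phosphoglycerate kinase makes the first ATP of the pathway. Pgk1 (ENSMUSG00000062070.12; chromosome X, 106187100 to 106203699, plus strand) had 693 and 828 reads, 1021 ± 177 CPM, and its testis retrogene Pgk2 had 0. Pgam1 (ENSMUSG00000011752.7; chromosome 19, 41911923 to 41918660, plus strand), the general phosphoglycerate mutase, had 702 and 777 reads, 991 ± 118 CPM. The muscle form Pgam2 had 8 and 6 reads, so that Pgam1 made up 98.9% and 99.2% of mutase reads.

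Enolase forms phosphoenolpyruvate, and its muscle gene was read deeply beside the general one. Eno1 (ENSMUSG00000063524.13; chromosome 4, 150236721 to 150248879, plus strand), the general alpha form, had 2982 and 3241 reads, 4170 ± 445 CPM. Eno3, the beta form of muscle, had 1388 reads in each library, 1858 ± 89 CPM. Eno1 made up 63.3% (61.9 to 64.7) and 64.5% (63.2 to 65.8) of enolase reads, and Eno3 29.5% (28.2 to 30.8) and 27.6% (26.4 to 28.9). Eno2, the neuronal form, had 12 and 7 reads, and Eno4 had 0. In phosphoglycerate mutase, by contrast, the muscle gene gave 1.13% and 0.766% of the reads. Eno1 and Eno3 share 77.8% of 1295 aligned coding bases.

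Part of the enolase count depends on near-identical copies. Eno1b, an annotated coding copy, had 328 and 386 reads, and the processed pseudogene Gm4735 had 169 and 171. Eno1b is 99.5% identical to Eno1 over 1736 bases and Gm4735 99.6% over 1302. Over the 1302 coding bases Eno1b differs from Eno1 at 8 positions and Gm4735 at 5. All of these differences fall on the third base of a codon. A coding window of 60 bases, positions 691 to 750 counted from the first base of the Eno1 start codon, shows how little separates the copies, with differing bases in capitals.
Eno1: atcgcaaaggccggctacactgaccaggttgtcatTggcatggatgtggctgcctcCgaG
Eno1b: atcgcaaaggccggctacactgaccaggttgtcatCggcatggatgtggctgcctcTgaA
Gm4735: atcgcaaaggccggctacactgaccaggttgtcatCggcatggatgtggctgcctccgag
In this window Eno1b carries T726C, C747T and G750A, and Gm4735 carries T726C alone. With the reads of both copies counted as Eno1, an alternative chosen after seeing the data, the Eno1 share of enolase reads became 71.3% and 73.1%. Whether those reads came from Eno1 or from the copies was not tested. Other members had fewer such reads. Pgk1-rs7 and Gm5537, 100% identical to Pgk1 over their length, had 7 and 21, and 10 and 7 reads. Pgam1-ps2, 100% identical to Pgam1 over 765 bases, had 23 and 7. Copies of Gpi1 and Ldha had at most 2 reads, and copies of Aldoa and Tpi1 had 0.

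Lactate dehydrogenase A favours lactate formation, and Ldhb is the form typical of heart. Ldha (ENSMUSG00000063229.15; chromosome 7, 46841475 to 46855627, plus strand) had 2404 and 2586 reads, 3343 ± 332 CPM. Ldhb had 24 and 27 reads, 34.2 ± 4.5 CPM, and Ldhc, the testis form, had 0. Ldha made up 99.0% of lactate dehydrogenase reads in both libraries. The Ldha promoter window is shown because it holds the most ACGTG matches of the 16 member windows, 5 over both strands at 3 places. CACGTG, which contains ACGTG on either strand and is also an E-box of the form CANNTG, occurs there at 2 places. That of Pgk1, with ACGTG at 2 places, is given beside it.
Ldha main start, chr7:46845554-46845853, plus strand: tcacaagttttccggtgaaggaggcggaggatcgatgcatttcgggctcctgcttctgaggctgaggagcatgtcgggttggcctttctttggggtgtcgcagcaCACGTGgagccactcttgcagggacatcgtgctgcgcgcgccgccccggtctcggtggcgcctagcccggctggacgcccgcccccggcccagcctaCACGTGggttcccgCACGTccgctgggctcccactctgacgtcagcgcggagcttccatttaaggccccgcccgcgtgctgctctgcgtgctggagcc
Pgk1 start, chrX:106186850-106187149, plus strand: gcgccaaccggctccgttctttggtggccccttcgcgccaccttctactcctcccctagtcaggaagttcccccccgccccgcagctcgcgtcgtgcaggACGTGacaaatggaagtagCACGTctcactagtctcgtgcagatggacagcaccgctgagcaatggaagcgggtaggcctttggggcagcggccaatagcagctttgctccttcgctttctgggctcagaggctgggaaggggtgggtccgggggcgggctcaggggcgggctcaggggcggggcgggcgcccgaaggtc
ACGTG was found in 7 of the 16 windows, against 19.6% of all windows. These 7 belong to 6 of the 10 members: Hk1, Hk2, Aldoa, Pgk1, Pgam1 and Ldha. The Aldoa windows among them hold the same place, and the Hk1 places lie within its first exon. CACGTG was found in 1 window, against 7.15% of all windows. The general E-box CANNTG was found in 12 of 16 windows, against 72.3% of all, and GGGCGG in 11, for 9 members, against 35.7% of all. TATAAA was in none of the 16, against 13.6% of all windows. Some windows of Aldoa and of Eno1 overlap, so the 16 are not independent, and these matches are letters in a window and not measured binding.

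**Figure D2:**
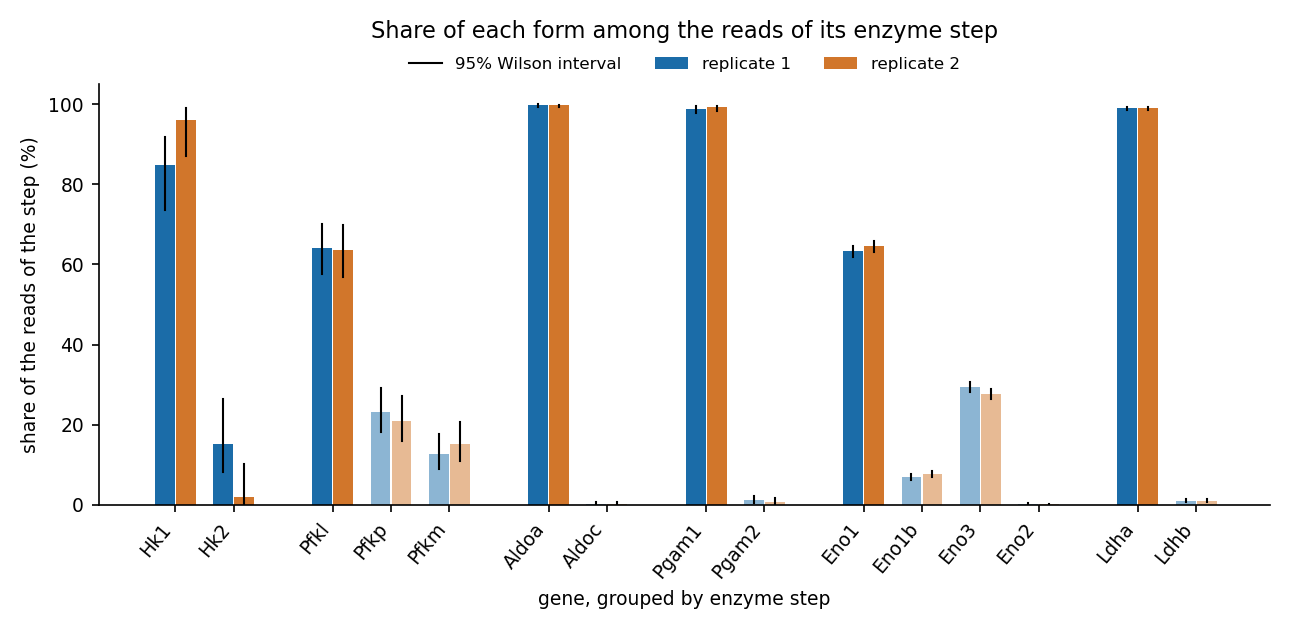
Share of each gene among the reads of its enzyme step, in percent, with Wilson 95% intervals for replicate 1 and replicate 2. Full-colour bars are the 10 enzymes and pale bars other forms. Aldolase, phosphoglycerate mutase and lactate dehydrogenase were nearly all 1 gene, while phosphofructokinase and enolase were split.

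The only comparison the design allows is that of the 2 libraries, by a two-sided exact binomial test over 8940 genes with at least 10 reads, with Benjamini-Hochberg adjustment. Of the 10 enzymes 5 passed, all higher in replicate 2, whereas 3.98% of all genes tested passed in either direction and 1.39% were higher in replicate 2. Among the 532 genes with at least 500 reads, a limit chosen after seeing the data, 13.3% were higher in replicate 2, and 7 of the 10 enzymes, these 5 with Tpi1 and Gpi1, belong to that class. Aldoa, at 1837 and 2229 CPM, had a log2 ratio of 0.28 (interval 0.18 to 0.38, adjusted p = 1.33e-05). Pgk1 had 0.35 (0.21 to 0.50, adjusted p = 0.00015). Eno1, at 3856 and 4485 CPM, had 0.22 (0.15 to 0.29, adjusted p = 4.57e-07). Ldha, at 3108 and 3579 CPM, had 0.20 (0.12 to 0.28, adjusted p = 6.54e-05). Pgam1 had 0.24 (0.10 to 0.39, adjusted p = 0.0334) and was the 1 member that no longer passed with TMM scaling (adjusted p = 0.165), DESeq2 size factors (0.185), complete models alone (0.23) or no read filter (0.053).

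The other 5 enzymes did not pass. Gpi1 had a log2 ratio of 0.24 (adjusted p = 0.284), Hk1 0.10 (0.98), Tpi1 0.08 (0.65), Pfkl -0.04 (0.998) and Hk2 -2.57 (0.232). The median over the 10 was 0.21, against 0.06 over all genes tested, and 8 of the 10 ratios were above 0. This test covers counting error alone. With edgeR's exact test and the common dispersion of both libraries, 0 of the 10 passed, at an adjusted p of 1.0 each, and 0.101% of all genes did. Its dispersion was estimated over both libraries as 1 group, so the difference between them counts as noise. It therefore cannot decide whether small differences are real. At an unadjusted p under 0.05 that test held 1 member, Hk2, and 357 of the 8940 genes (3.99%). The libraries also differed in the share of annotated-gene reads on complete models, 84.0% against 88.3%. The muscle-lineage marker Des had 881 and 1187 reads (log2 ratio 0.53, adjusted p = 5.84e-14 in the binomial test). Des did not pass edgeR's exact test. Cdh15, Myog, Mymk and Itga7 did not pass the binomial test, with log2 ratios of 0.19, 0.15, 0.12 and -0.21. Myf5, a myogenic factor outside the marker list, went the other way from Des. It had 215 and 60 reads (log2 ratio -1.73, adjusted p = 1.05e-16 in the binomial test) and also passed edgeR's exact test (adjusted p = 0.000706). The part of the complete share, of Des or of Myf5 in the enzymes' ratios was not tested.

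**Figure D3:**
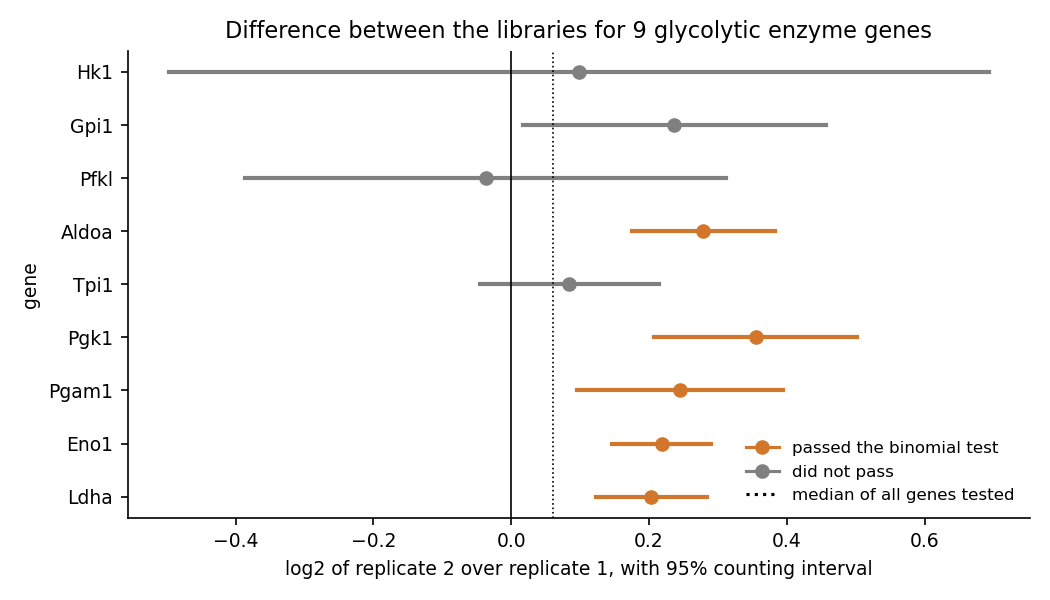
Log2 ratio of replicate 2 over replicate 1 for 9 enzymes, with 95% counting intervals. Orange genes passed the exact binomial test and lie between 0.20 and 0.35, to the right of the dotted median of all genes tested at 0.06. Hk2, with 9 reads and 1 read, is left out of the plot.

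Genes around the pathway were read from a list of 34. Of these, 28 had reads in both libraries, and Slc2a3, Epas1 and Gpd1 had 0 in both. Of the 28 tested, 2 were higher in replicate 2 by the binomial test (1.39% of all genes), and 0 were higher in replicate 1. Both belong to serine synthesis, which branches from 3-phosphoglycerate. They were Phgdh, which opens that branch, at 406 and 483 reads (log2 ratio 0.35, adjusted p = 0.0128), and the aminotransferase Psat1 at 261 and 363 (0.57, adjusted p = 8.93e-05). Neither passed edgeR's exact test with the common dispersion (adjusted p = 1.0). Of the other genes listed with these branches, Psph had 57 and 85 reads and did not pass the binomial test (0.67, adjusted p = 0.112). Gpd2 had 62 and 82 reads and did not pass it either (0.50, adjusted p = 0.337). The median log2 ratio of the list was 0.11. Of the glucose transporters listed, Slc2a1, the general form GLUT1, had 39 and 40 reads, and Slc2a4, the insulin-dependent GLUT4, had 1 and 0. The lactate exporters Slc16a1 and Slc16a3 had 19 and 16, and 29 and 21 reads, and their chaperone Bsg had 905 and 826. Among regulators of phosphofructokinase, Pfkfb4 had 10 and 26 reads (adjusted p = 0.0847), Pfkfb2 had 13 and 18, and Pfkfb3 had 0 and 1. Tigar had 10 and 4 reads, and Pfkfb1 had 0 and 2. The hypoxia factor Hif1a had 52 and 42 reads. Its hydroxylases Egln1, Egln2 and Egln3 had 14 and 3, 48 and 44, and 10 and 22 reads, and its ubiquitin ligase subunit Vhl had 13 and 26. In the pentose phosphate branch Taldo1 had 224 and 219 reads, Pgls 236 and 200, Pgd 178 and 225, Tkt 72 and 65 and G6pdx 66 and 93. Of the kinases that switch off pyruvate dehydrogenase, Pdk3 was read most, with 55 and 61 reads, against 17 and 16 for Pdk1, 17 and 23 for Pdk2 and 5 and 6 for Pdk4. The pyruvate carrier subunits Mpc1 and Mpc2 had 134 and 96, and 67 and 66 reads. Bpgm, the bisphosphoglycerate mutase, had 41 and 32.

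Most reads of the enzymes lay on complete models, that is annotated transcripts together with 2 unannotated classes, NIC (new combinations of known splice sites) and NNC (at least 1 new site). Complete models held 92.6% (92.1 to 93.1) of the members' reads in replicate 1 and 95.5% (95.1 to 95.9) in replicate 2, beside 84.0% and 88.3% over all annotated genes. The annotated class alone held 89.7% and 92.3%. By gene, the complete share was lowest for Hk2, with 1 of 9 and 0 of 1 reads, and for Hk1 and Pfkl. It was 24 of 50 (interval 34.8% to 61.5%) and 30 of 50 (46.2% to 72.4%) for Hk1, whose main transcript has 4278 bases, and 81.5% and 87.2% for Pfkl, with 3730. For the other 7 members it was between 89.0% and 97.2%. Incomplete models, which carry part of an annotated chain of exons, held 24 and 18 of the 50 Hk1 reads. Of these, 11 and 18 began inside the gene and kept the 3′ exons of the chain. Over all 10 members 529 and 381 of the 645 and 449 incomplete reads were of this kind, lacking the 5′ exons, and 2 and 3 lacked the 3′ exons.

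**Figure D4:**
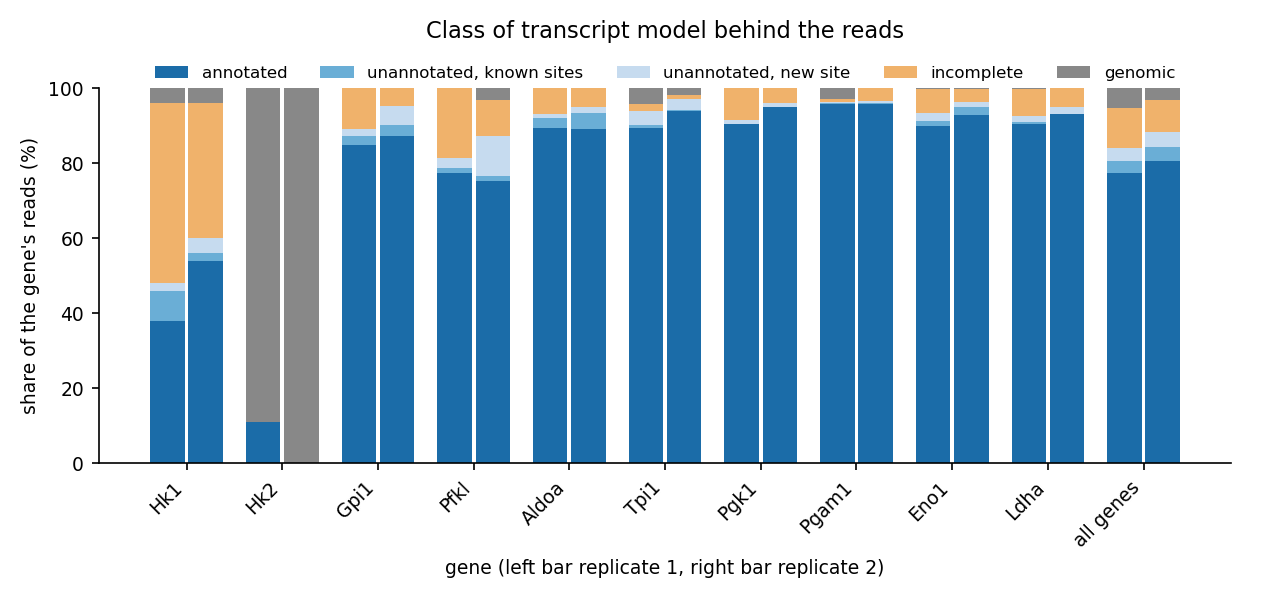
Class of the models behind each enzyme's reads, in percent, with replicate 1 on the left and replicate 2 on the right of each pair, and all annotated genes for comparison. Annotated models fill most of each bar except for Hk1 in replicate 1, with 38.0%, and Hk2, whose reads are mostly genomic.

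A single protein-coding transcript led 9 of the 10 enzymes, and that of Hk2 had 1 and 0 reads. Of 93 annotated transcripts, 22 had a read in either library and 16 in both. The 55 protein-coding ones held 8622 and 9691 reads, the 26 retained-intron ones 82 and 40. The main transcript took 99.4% and 99.3% of complete reads for Pgam1 (Pgam1-201), 98.9% in both libraries for Pgk1 (Pgk1-201) and 97.8% and 98.2% for Ldha (Ldha-202). It took 93.4% and 95.4% for Eno1 (Eno1-202), 93.7% and 95.5% for Tpi1 (Tpi1-205), 93.6% and 92.0% for Aldoa (Aldoa-201) and 94.9% and 90.4% for Gpi1 (Gpi1-201). It took 113 of 119 and 99 of 116 complete reads for Pfkl (Pfkl-201), and 19 of 24 and 27 of 30 for Hk1 (Hk1-202). The median over the 4281 genes tested was 89.2% and 89.4%.

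Use of the main transcript among complete models did not pass Fisher's exact test for any of the 9 members tested, where 0.0934% of all genes passed. At an unadjusted p under 0.05 it held 3 members, Eno1, Pfkl and Gpi1, and 167 of the 4281 genes (3.90%). With incomplete and genomic models included, 4 members passed, Eno1, Tpi1, Ldha and Pgk1, against 2.74% of all genes. All 4 had a larger share of the main transcript in replicate 2, for Eno1 87.1% against 91.8% (adjusted p = 3.63e-07). In this setting incomplete and genomic reads count against the main transcript. Over all annotated genes incomplete models held 10.6% of reads in replicate 1 and 8.43% in replicate 2, and genomic models 5.38% and 3.23%. The part of this in the 4 calls was not tested. The second annotated transcripts were minor. Aldoa-202, of 10 exons, had 29 and 24 reads and Aldoa-203 had 5 and 6. The retained-intron transcript Eno1-207, of 3 exons, had 73 and 30 reads, 2.62% (2.09 to 3.29) and 0.962% (0.675 to 1.37) of complete Eno1 reads, and these intervals did not overlap. Eno1-201 had 8 and 3 reads, Tpi1-203 8 and 6, Tpi1-201 6 and 5, and Gpi1-203 1 and 4. For Ldha, Pgam1, Pgk1 and Pfkl no other annotated transcript had more than 1 read.

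Unannotated structures of several exons numbered 169 over 9 members, with 279 and 340 reads. Of these 113 had a single read, and 40 had reads in both libraries. By the support rule of at least 5 reads in one library and 1 in the other, 14 structures remained, of Eno1 (5), Ldha (3), Aldoa (2), Tpi1 (2), Gpi1 (1) and Pfkl (1). Hk1, Pgk1 and Pgam1 had none. The most read of these was the Aldoa structure with the 45-base exon. The next was an Eno1 structure of 12 exons with 31 and 25 reads, 1.11% and 0.802% of complete Eno1 reads. It carried a 59-base exon at chromosome 4, 150241767 to 150241825, in place of the 59-base coding exon of the main transcript at 150242122 to 150242180. The alternative exon is annotated in Eno1-205. The 2 exons have the same length and are alike at 30 of 59 positions (50.8%), and they are shown with differing bases in capitals.
Eno1 main exon: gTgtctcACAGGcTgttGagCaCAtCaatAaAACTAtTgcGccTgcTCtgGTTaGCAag
Eno1 alternative exon: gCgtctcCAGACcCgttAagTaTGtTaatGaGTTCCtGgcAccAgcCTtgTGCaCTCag
The swap leaves the length of the coding sequence as it is.

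In 10 of the 14 supported structures a splice site lay at most 10 bases from that of the main transcript, and 9 of these lie within the coding span. A donor 4 bases further downstream was the most frequent, in 5 structures of Eno1, Ldha, Pfkl and Tpi1. Eno1 had 27 and 28 reads with such a donor at 150246771, and Tpi1 had 26 and 16 at 124812617. A move of 4 bases is not a multiple of 3. A donor 3 bases upstream in Ldha, at 46851055 with 11 and 18 reads, was the 1 near move that is. The junctions of these 3 sites show the bases gained or lost, with the upstream exon in lower case and the downstream exon in capitals.
Eno1 main junction: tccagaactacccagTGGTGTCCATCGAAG
Eno1 junction 4 bases downstream: gaactacccaggtggTGGTGTCCATCGAAG
Tpi1 main junction: ggagaatcagatgagCTGATTGGCCAGAAA
Tpi1 junction 4 bases downstream: aatcagatgaggtcaCTGATTGGCCAGAAA
Ldha main junction: atggcgactccagtgTGCCTGTGTGGAGTG
Ldha junction 3 bases upstream: aacatggcgactccaTGCCTGTGTGGAGTG
Measured against all annotated introns of each gene, such near moves made up 10 of 14 supported structures of the members (71.4%) and 511 of 1610 in all other genes (31.7%). In other genes with at least 500 reads they made up 298 of 524 (56.9%). The donor 4 bases downstream made up 35.7% of supported structures in the members, 11.8% in all other genes and 26.7% in other genes with at least 500 reads. These shares are descriptions over structures that share genes, with no test.

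The remaining supported structures were smaller. Aldoa had an acceptor 4 bases downstream (5 and 9 reads), Tpi1 and Gpi1 had acceptors 2 bases downstream (4 and 6 reads each), and Pfkl had a donor 4 bases downstream (3 and 5). Ldha had donors 5 and 4 bases downstream (5 and 4, and 2 and 7 reads). Eno1 had another donor 4 bases downstream (6 and 13 reads), an acceptor 23 bases downstream (6 and 3), and a structure of 13 exons with an extra exon between the first and second of the main transcript (7 and 10).

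Only models outside the annotated class have their own ends, because the 10 main transcripts carry the exons of GENCODE M21 in the deposited annotation. The start or end of a model does not show that the RNA began or ended there. Whether these ends are those of single reads was not tested. The median start of unannotated models with the main first donor lay inside the annotated start for 8 of 9 members, and for Hk1 at the annotated start. Models were counted in each library and pooled, so a structure read in both libraries counts more than once. In Eno1, 43 models with 203 reads, 21 models in replicate 1 and 22 in replicate 2, began at 150237240 to 150237243. By the median this was 290 bases inside the annotated start and 18 bases after the nearest RefSeq start. In Tpi1, 18 models with 72 reads began 140 bases inside the annotated start and 2 bases after the RefSeq start. In Aldoa, 22 models with 41 reads began 84 bases inside it and 8 bases after a RefSeq start. RefSeq lists several starts for Eno1 and Aldoa, of which the nearest was taken. Another of those of Aldoa, at 126799254, is the annotated start itself. In Eno1, Tpi1 and Aldoa the models thus began nearer to the nearest RefSeq start than to the start of the main GENCODE transcript. For the others the median start lay 47 bases inside the annotated start in Gpi1, 71 in Pfkl, 63 in Pgk1, 115 in Pgam1 and 4 in Ldha. For Gpi1, Pfkl and Pgk1 the RefSeq start is the annotated one. In Hk1, Pgam1 and Ldha the models began nearer to the GENCODE start. Their median start lay 121, 167 and 39 bases from the nearest RefSeq start, against 0, 115 and 4 from the annotated start.

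The 3′ ends were taken over all models of several exons outside the annotated class, incomplete ones included, and fell into 2 kinds. In Aldoa, Tpi1, Pgk1, Pgam1, Eno1 and Ldha the median model that reached the last exon ended 0 to 6 bases from the annotated end, in both libraries. In Gpi1 it ended 829 bases short of the annotated end in both libraries, in Pfkl 891 and 889 bases short, and in Hk1 253 bases short. The last exons of these 3 have 1220, 1411 and 1202 bases, so the ends fell inside them. The 18 and 25 Gpi1 models all ended at 829 bases short. In Pfkl 14 and 20 models were read, and in Hk1 10 and 12. The spread of ends within a gene was at most 4 bases in each of these 3.

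**Figure D5:**
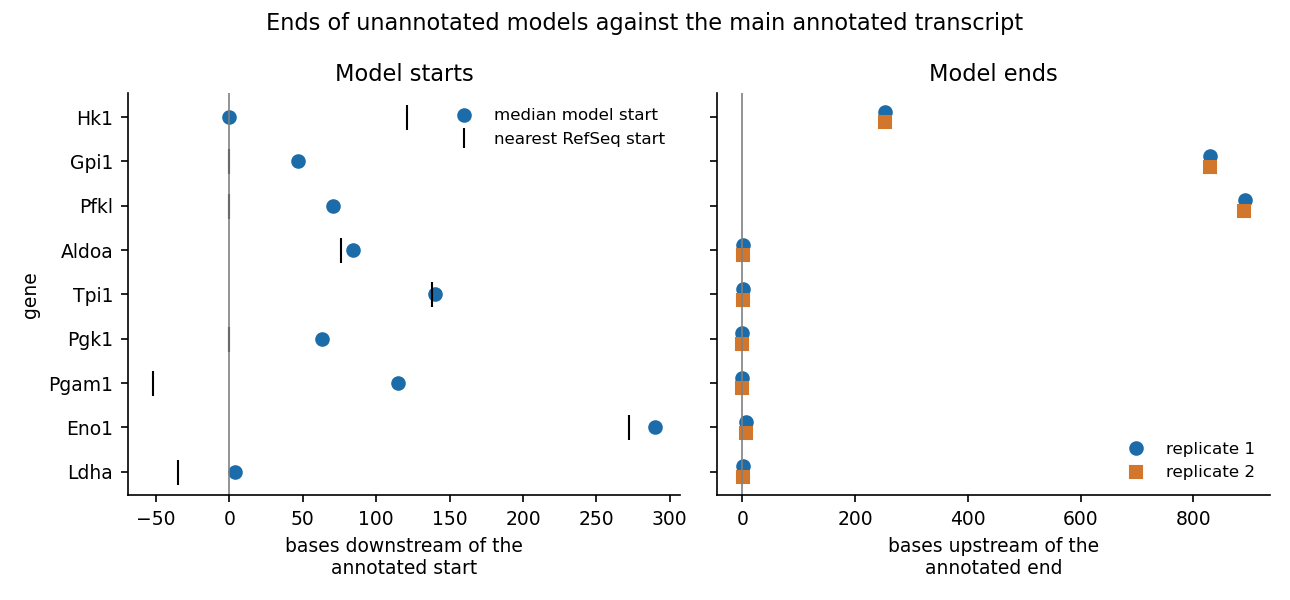
Left, median start of unannotated models in bases downstream of the start of the main annotated transcript, with the nearest RefSeq start as a bar. Right, median end of all models outside the annotated class, incomplete ones included, in bases upstream of the annotated end, in each library. Eno1, Tpi1 and Aldoa start near the RefSeq bar, while Hk1, Pgam1 and Ldha start nearer to the annotated start. Gpi1, Pfkl and Hk1 end 829, 889 to 891 and 253 bases short of the annotated end.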

How the data were processed

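Long reads of total RNA were measured in 2 libraries of 1 group. The deposited tables give the raw read count per transcript model, with no normalisation, per the file headers. The deposited annotations give other values, the mm10 coordinates of each model, made against GENCODE M21 per the file headers. Aligner and filters: not given in the sources used here. Models of the members were summed per gene and scaled to annotated-gene reads. The members and lists were chosen with earlier results of these data known, and the named genes were all members, all paralogues and listed pathway genes, the 3 most read transcripts of each member, first exons with at least 5% of complete reads, and supported structures. Other first exons, Myf5 and the Gapdh pseudogenes were named after their values were seen. The levels of some paralogues are not reported here.

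Genes with at least 10 reads were compared by a two-sided exact binomial test at an adjusted p of 0.05 (scipy 1.17.1), with an offset of 0.5 reads in log2 ratios. Alternatives used edgeR 4.0.16 and DESeq2 1.42.0 in R 4.3.3, with a biological coefficient of variation of 0.136 common to all genes. Fisher's exact test used genes with at least 20 complete reads in each library. Both tests were tested on simulated data. Intervals are Wilson 95% intervals. Copies were found with blastn of BLAST+ 2.17.0, at 90% identity over 500 bases or more. Coding identities came from global alignments (Biopython 1.88). Transcript bases were those of GENCODE M21, and promoter windows those of RefSeq on GRCm38.p6, the assembly of mm10, in which all 10 members had an entry.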

Additional observations from a re-analysis of the deposited data

How the results depend on the processing

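No paired analysis was possible because the study has 1 group, whose 2 libraries share no number with another group. The summed level of the 10 enzymes was between 12547 and 14596 CPM with either library alone, and the complete share between 92.6% and 95.5%. With edgeR's exact test and the common dispersion, 0 enzymes in place of 5 and 9 genes in place of 356 differed between the libraries. That test takes the spread of both libraries as noise, and the cause of single lost calls was not tested. TMM, DESeq2 size factors, no read filter and complete models alone each left 4 enzymes, and a filter of 50 reads left 5. TMM moved all log2 ratios by -0.05 and DESeq2 size factors by -0.06. The annotated class alone held 91.0% of the reads in place of 94.0%, since it leaves out unannotated models. The share of the main transcript differed for 4 enzymes with all models, incomplete and genomic ones included, and for 0 with complete models. At least 5 reads in each library left 8 of 14 unannotated structures, since the rule is stricter. Among single genes, the Eno1 share of enolase reads became 72.2% with Eno1b and Gm4735 counted as Eno1. The Hk1 share on its main first exon fell from 97.9% to 64.6% with incomplete models included. Depth limits Hk2 and Hk1 most, at 1 to 50 reads a library.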

Other observations

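Reads on models antisense to the enzymes were few. Over Hk2 there were 5 and 3, each on 1 model, beside 9 and 1 reads on the sense strand. Over Ldha there were 0 and 3, and over the other 8 enzymes 0 in both libraries, where a count of 0 allows up to 3.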
